A study of Mus musculus with 6 samples.

Results

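In the FPKM table of polyadenylated RNA from mouse regulatory T cells, 1288 of 24421 gene rows carried the name of a small nucleolar RNA (snoRNA), a small Cajal body RNA (scaRNA) or a microRNA. Of these, 209 (16.2%) reached an FPKM of 1 or more in at least 2 of the 6 libraries, and they are the small RNA rows described here. They comprised 126 microRNA rows, 54 C/D box snoRNA rows, 24 H/ACA box snoRNA rows, 2 scaRNA rows, and 3 rows (Mir155hg, Mir17hg and Mir22hg) whose names fit the pattern although they are the long transcripts that hold microRNAs. FPKM is a count of fragments scaled to the length of the gene and to the number of mapped fragments in the library. The rows were chosen by these levels, so the levels below are a description. The filter takes no account of groups, so a row could pass it through the group in which it was high. In 2 rows the values of 1 or more fell in libraries of 1 group only.

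The cells were wild-type regulatory T cells (Treg), CD4 lymphocytes defined by the transcription factor Foxp3, taken from spleen and lymph nodes. They formed 3 groups of 2 libraries: stimulated with iBP, stimulated, and unstimulated without treatment. The series describes iBP as an inhibitor of the ubiquitin mark that Polycomb complexes place on histone H2A. The labels name neither the stimulus and how long it lasted nor the amount of iBP. No group received iBP without stimulation, and Kdm2b knockout Treg that the design text also names were not analysed here. About 100000 cells went into TRIzol and 40 ng of RNA into each SMART-seq library, in which reverse transcription starts from an oligo-dT primer and the cDNA is amplified by PCR. The labels number the replicates without saying whether they came from separate mice, so the p-values rest on a spread between libraries that may be technical. An exact two-sided permutation test of 2 libraries against 2 cannot give a p below 0.333. The tests below therefore come from a model fitted across all rows. That model draws the spread of each row toward that of other rows at a similar level, so a p-value rests partly on other rows.

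SnoRNAs guide chemical modification of ribosomal and spliceosomal RNA. C/D box snoRNAs direct methylation of ribose and H/ACA box snoRNAs direct conversion of uridine to pseudouridine. In mammals most are cut out of introns of host genes, many of which encode ribosomal proteins or make no protein. MicroRNAs are cut from a hairpin in a longer transcript, which may be an intron or exon of a host gene, by Drosha and Dicer, and then repress target mRNAs through base pairing of their seed. In T cells they are known for setting the threshold of activation and for keeping Treg stable. The mature forms of both classes carry no poly(A) tail, and their rows lie inside longer genes, so a library primed with oligo-dT can give such a row reads from the host's RNA. The table cannot tell a processed small RNA from host RNA over the same bases.

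The sequences below belong to the rows on which the results turn. In the mature microRNAs, from RefSeq on GRCm38.p6, the capitals mark the seed (bases 2 to 8). The first 6 come from the 5 microRNA rows that differed with stimulation, each inside a different host gene. No seed is shared among the 6 sequences shown, and the other mature form of Mir6974 is not shown.
mmu-miR-6974-5p: gUGAGGCAgcaagagauugggggu
mmu-miR-7014-5p: uUGGGUGCuguggaagggacag
mmu-miR-7014-3p: cCUCUUUCauaccaaccacag
mmu-miR-704: aGACAUGUgcucugcuccuag
mmu-miR-8100: aGGAGGAAagggagcaagcaggu
mmu-miR-7578: cAUGGCUCugucuucugccucaga

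The next 5 are from the cluster inside Mir17hg, the only host with 5 microRNA rows, and they fall into 3 seed groups. miR-17-5p and miR-20a-5p share the seed AAAGUGC, miR-19a-3p and miR-19b-3p share GUGCAAA, and miR-18a-5p has AAGGUGC.
mmu-miR-17-5p: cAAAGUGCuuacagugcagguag
mmu-miR-20a-5p: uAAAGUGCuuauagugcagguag
mmu-miR-18a-5p: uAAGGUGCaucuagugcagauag
mmu-miR-19a-3p: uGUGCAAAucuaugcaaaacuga
mmu-miR-19b-3p: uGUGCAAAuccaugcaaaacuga

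The following 2 hairpins were each as long as an annotated intron of their host to within 3 bases at both ends, and the capitals mark the GU and AG with which the introns begin and end. Mir7058 (chr7:126367971-126368045, minus strand) and Mir1982 (chr10:80828797-80828870, plus strand) were the microRNA rows with the highest levels. Among RefSeq hairpins, 30 of 1005 (2.99%) begin with GU and end with AG. Among the 111 microRNA rows described here that matched a RefSeq hairpin, of 126, 12 (10.8%) do.
Mir7058: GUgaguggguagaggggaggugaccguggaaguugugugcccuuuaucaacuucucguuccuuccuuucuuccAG
Mir1982: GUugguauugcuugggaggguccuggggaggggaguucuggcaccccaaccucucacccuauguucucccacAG

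The last 3 are the snoRNA rows that passed the test in a comparison, read from GENCODE M21 on GRCm38. In Snord16a and Snord45b the capitals mark TGATG, the core of box C, within the first 15 bases and CTGA, box D, within the last 15, searched on the sense strand. In Snora21 they mark ACA placed 3 bases before the 3′ end. Both C/D motifs were present in 42 of 53 C/D rows with a sequence (79.2%), in 80 of all 97 annotated Snord genes (82.5%) and in 2 of 1005 microRNA hairpins (0.199%). The ACA was present in 19 of 24 H/ACA rows (79.2%), in 33 of all 40 annotated Snora genes (82.5%) and in 16 of 1005 microRNA hairpins (1.59%).
Snord16a: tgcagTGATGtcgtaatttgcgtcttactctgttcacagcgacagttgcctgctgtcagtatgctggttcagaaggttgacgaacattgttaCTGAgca
Snord45b: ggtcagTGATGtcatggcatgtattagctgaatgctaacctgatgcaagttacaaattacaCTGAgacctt
Snora21: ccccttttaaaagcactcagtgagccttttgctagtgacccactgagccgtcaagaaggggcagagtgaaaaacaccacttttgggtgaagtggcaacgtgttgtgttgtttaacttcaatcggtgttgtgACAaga

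The small RNA rows made up 0.523% and 0.500% of summed FPKM in the libraries stimulated with iBP, 0.429% and 0.520% in stimulated libraries and 0.390% and 0.439% in unstimulated libraries. The number of these rows listed at 0 was 9 and 9 with iBP, 13 and 12 in stimulated and 25 and 7 in unstimulated libraries. Unstimulated replicate 1 thus had the lowest share and the most zeros, and with 12596 rows above 0 in the whole table it had fewer than the other libraries, which had 13293 to 13592. The same library had the highest summed FPKM of 7 erythroid and platelet genes, 247, against 71.6 in unstimulated replicate 2 and 75.6 to 189 in the other 4 libraries. Foxp3 read 122 and 124 FPKM with iBP, 121 and 101 in stimulated and 35.5 and 47.1 in unstimulated libraries, and the B cell receptor gene Cd79a read 234 to 291 in all 6. The summed FPKM of 8 B cell genes was 732 and 762 with iBP, 871 and 827 in stimulated and 814 and 832 in unstimulated libraries, and that of 7 Treg and T cell genes was 929 and 935 FPKM with iBP, 880 and 921 in stimulated and 677 and 691 in unstimulated libraries. The part of other cell types in the differences below was not tested, and in bulk RNA fewer cells of a type and less RNA per cell cannot be told apart. The table gives FPKM without counts, so the depth is not known from it.

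Most small RNA rows were low. Their median FPKM over the 6 libraries was 2.59, against 8.42 for all 10436 rows that passed the same filter, and 144 of the 209 averaged under 5. In all 6 libraries 107 rows reached 1, and 23 did so in exactly 2. Just inside the filter, Mir8112 had 1.03 FPKM as its second highest value, Snord95 1.04 and Mir669n 1.06. Just outside it, Mir8093 had 0.966, Mir7013 0.965 and Mir1933 0.954. Of the 1288 rows with such names, 741 were listed at 0 in every library. Rows passed the filter unequally by class: 54 of 74 C/D rows (73.0%) and 24 of 36 H/ACA rows (66.7%) did so, but 126 of 1163 microRNA rows (10.8%) and 2 of 9 scaRNA rows (22.2%).

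The 15 highest rows held 50.2% of the summed FPKM of the small RNA rows, and the highest 3 held 21.2%. Mir155hg, the transcript that carries miR-155, averaged 148 FPKM. Mir7058 in Lat, the adaptor protein that relays T cell receptor signals, had 98.2 and 109 FPKM with iBP, 108 and 123 in stimulated and 121 and 105 in unstimulated libraries. Mir1982 in Oaz1, which restrains polyamine synthesis, had 122 and 124 FPKM with iBP, 102 and 109 in stimulated and 95.8 and 109 in unstimulated libraries. On the log2(FPKM + 1) scale the differences for stimulated against unstimulated were 0.03 ± 0.13 in Mir7058 and 0.04 ± 0.12 in Mir1982 (SE). Both iBP libraries of Mir1982 stood above the other 4, with differences of 0.23 against stimulated and 0.27 against unstimulated that did not pass (limma, adjusted p 0.998 and 0.415).

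The highest snoRNA row was Snora28 in the translation factor gene Eif5, with 126 and 105 FPKM with iBP, 79.6 and 99.8 in stimulated and 81.8 and 103 in unstimulated libraries. Snord73a, in the ribosomal protein gene Rps3a1, had 53.5 and 48.8 FPKM with iBP, 43.7 and 92.6 in stimulated and 54.4 and 55.5 in unstimulated libraries. Snora70 in Rpl10, Snord72 in Rpl37, Snord96a in Gnb2l1 and Snora41 in Eef1b2 averaged 30.5 to 37.4 FPKM, Snord22 in the non-coding Snhg1 averaged 27.5, and Snora65 in Rpl12 averaged 25.6. The remaining microRNA rows among the highest 15 were Mir6973a in the lymphotoxin gene Ltb, at 39.5, and Mir7036 in Srrt, at 25. Replicates lay far apart in Snora41 with iBP, at 20.5 and 57.4 FPKM, in Snord73a in stimulated libraries, and in Snora70 in unstimulated libraries, at 18.4 and 41.3.

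**Figure D1:**
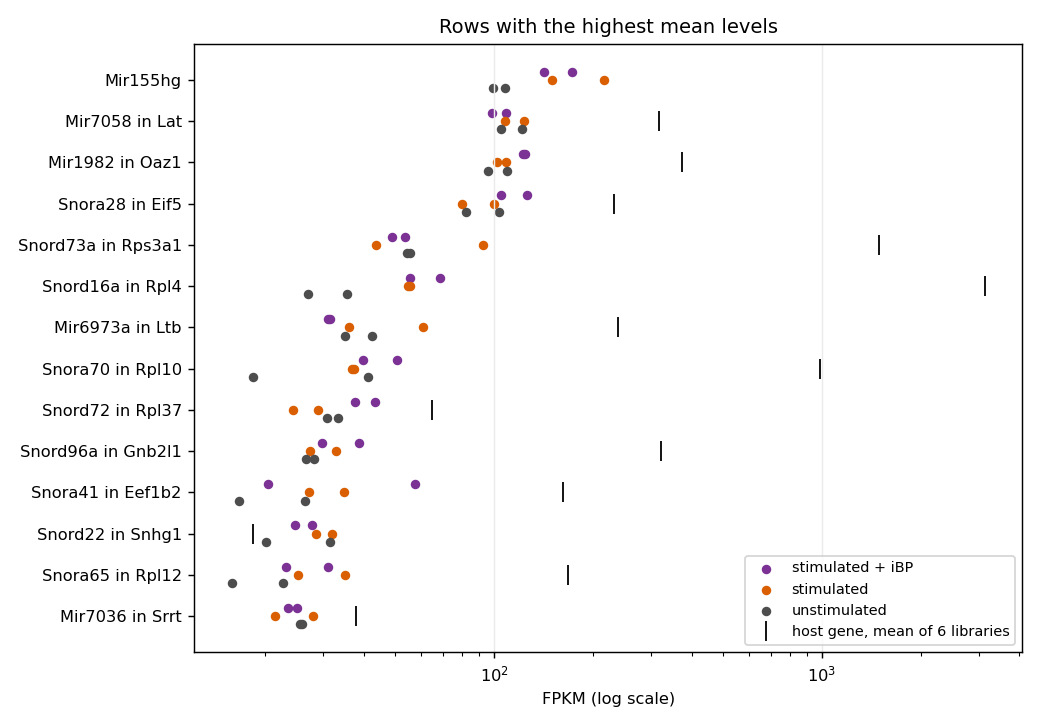
Small RNA rows with the highest mean levels, 14 of the highest 15, with FPKM of each library on a log axis and the mean of the host gene as a vertical tick. The rows that have a host lie below it except Snord22, which lies above Snhg1, and the 3 groups overlap in most rows.

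Replicates differed more in the small RNA rows than elsewhere. The median gap between the 2 replicates, on the log2(FPKM + 1) scale, was 0.43 with iBP, 0.44 in stimulated and 0.51 in unstimulated libraries, against 0.21 with iBP, 0.23 in stimulated and 0.27 in unstimulated libraries over all rows tested. Among rows with a mean FPKM of 1 to 5 the gap was 0.54 with iBP, 0.49 in stimulated and 0.56 in unstimulated libraries for small RNA rows, and 0.32, 0.32 and 0.37 in the same groups for others. A fragment adds more FPKM to a short row than to a long one, and the rows were short, at 52 to 414 bases with a median of 80 when the 3 host transcripts are left aside. The part of row length in the gaps was not tested. The 95% interval of a difference between groups had a median half-width of 0.86 in small RNA rows and 0.57 over all rows. The model draws the spread of each row toward that of rows at a similar level, and there the other rows had smaller gaps. Intervals of small RNA rows may therefore be too narrow and their p-values too small.

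Where a row lay was read from GENCODE M21, and all coordinates are on GRCm38. Of the 209 rows, 178 lay whole inside a longer gene of the same strand that the table also lists, in 148 different hosts. In 109 of these the row was intronic, in 13 it lay in an exon of a transcript of the basic (better supported) set, and in 56 it lay in an exon only of some transcript outside that set. Another 13 rows had no containing gene, 9 overlapped a gene of the opposite strand only, and 9 had a host that is not a row of the table. Ribosomal protein genes held 31 rows in 20 hosts, and Mir17hg and Rpl13a held 5 rows each.

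The rows read a small part of their host's level. The median row stood at 11% of its host's FPKM, over the 176 rows whose host was above 0, with quartiles of 3.17% and 24.3%. It was 9.67% for intronic rows, 12.1% for all 69 exonic rows and 41.6% for the 13 rows in exons of the basic set. The 5 microRNA rows of Mir17hg are among those 13, and only 13 of 102 such rows passed the filter. In 8 rows the mean exceeded that of the host. Among them were Snord12 in 1500012F01Rik (now named Zfas1), Snord22 in Snhg1, Snora61 in Snhg12 and Snora78 in Snhg9, all non-coding hosts. The others were Mir1839, Mir6958, Mir7005 and another snoRNA row, not named here. Snord12 was the clearest, with 17.1 and 15.9 FPKM with iBP, 9.83 and 12.2 in stimulated and 19.7 and 11 in unstimulated libraries, whereas its host had 3.21 to 4.44.

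Whether a row passed the filter went with the level of its host. Among intronic rows, 4 of 285 passed in hosts under 1 FPKM, 20 of 179 in hosts of 1 to 10, 56 of 146 in hosts of 10 to 100 and 29 of 38 in hosts over 100 (76.3%). Rows in exons outside the basic set passed at 27 of 35 (77.1%) in hosts over 100. Rows in exons of basic transcripts passed at 4 of 33 (12.1%) in hosts of 1 to 10, near the 11.2% of intronic rows there, at 9 of 36 (25%) in hosts of 10 to 100, where 38.4% of intronic rows passed, and at 0 of 4 in hosts over 100. These shares describe the rows of the table and were not tested.

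**Figure D2:**
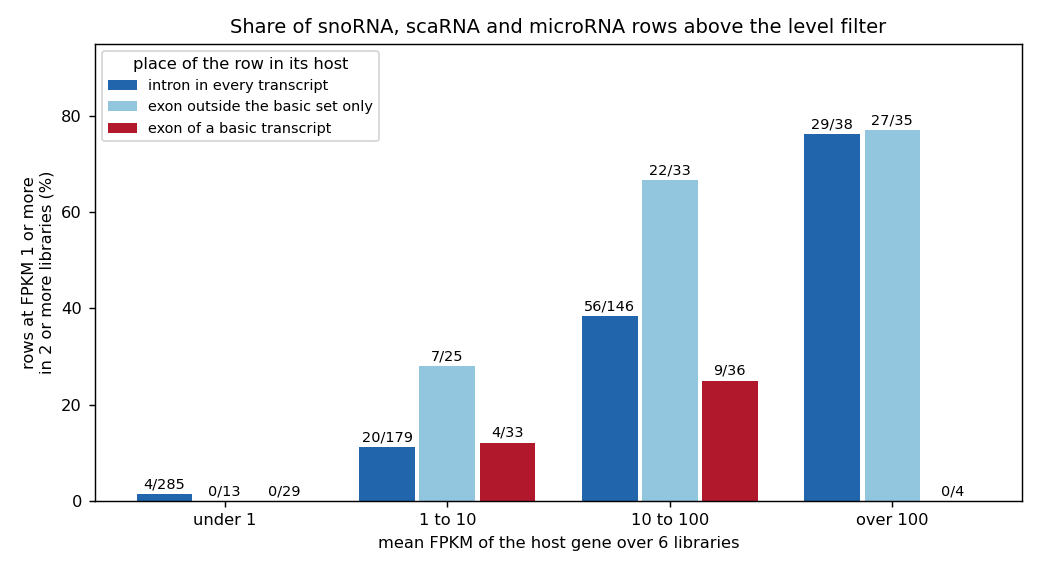
Share of snoRNA, scaRNA and microRNA rows with an FPKM of 1 or more in at least 2 libraries, by the mean FPKM of the host and the place of the row in it. Numbers above the bars are rows passing of rows present. The share climbs with host level to 76.3% for introns and 77.1% for exons outside the basic set. For exons of basic transcripts it climbs to 25% in hosts of 10 to 100, and the last class holds 4 rows, of which 0 passed.

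MicroRNA rows that passed the filter lay at the ends of introns more often than the others. Of 103 microRNA rows with a host, 57 (55.3%) had an end within 3 bases of a splice site, against 170 of 644 (26.4%) among microRNA rows that did not pass. In hosts averaging 10 FPKM or more the counts were 44 of 77 (57.1%) and 47 of 133 (35.3%), so the gap between the shares was narrower among well expressed hosts. These shares were not tested. In those hosts the containing intron had a median length of 928 bases for the rows that passed and 1634 for those that did not. SnoRNA and scaRNA rows with a containing intron lay inside it, with none at a splice site, and the median intron in hosts of that level was 391 bases for the 66 that passed and 848 for the 16 that did not. A whole intron was spanned by 8 microRNA rows: Mir7058 and Mir1982, whose sequences are shown above, and Mir6974, Mir6958, Mir7060, Mir7068, Mir7091 and Mir877.

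Several microRNAs known from T cells were almost absent from their own rows. Of a list of 55 immune microRNA genes, 53 were in the table and 10 passed the filter, 9 of them small RNA rows as defined here and the other Mirlet7d. Mir155 lies in an exon of Mir155hg and had 2e-06 and 0.000147 FPKM with iBP, 2.3e-05 and 0.000133 in stimulated and 4.5e-05 and 8.2e-05 in unstimulated libraries, although Mir155hg averaged 148. Its mature form, shown for that contrast, is the following, with the seed in capitals.
mmu-miR-155-5p: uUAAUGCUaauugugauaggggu

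Mir92-1 in Mir17hg stayed at 0.00108 to 0.00365 FPKM, Mir22 in Mir22hg at 0.000129 to 0.00157, and Mir21a, in an exon of Vmp1 (mean 66.1 FPKM), was listed at 0 in every library. Mir142 was also listed at 0, while Mir142b, annotated over the same bases on the opposite strand, had 4.17 and 12.5 FPKM with iBP, 7.14 and 8.16 in stimulated and 3.27 and 6.30 in unstimulated libraries. No source used here says whether counting went by strand, so reads of the pair cannot be told apart. Values above 0 but under 0.001 were common only in rows with such names, at 225 of 7728 values (2.91%) against 14 of 138798 (0.0101%) in the rest of the table. In 28 rows inside hosts of 10 FPKM or more the mean was above 0 and under 0.01, and 25 of these lay in an exon. Such values are read here only as near 0.

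For stimulated against unstimulated cells, which asks what activation changed, 8 small RNA rows passed the test (limma on log2(FPKM + 1), adjusted p under 0.05 over all 10436 rows), 7 higher and 1 lower. This was 3.83% of the 209, where 1.29% of all rows passed, 0.968% higher and 0.326% lower. The 7 higher rows were 4 microRNA rows (Mir6974, Mir7014, Mir704 and Mir8100), Snord16a, and the host transcripts Mir155hg and Mir17hg, and Mir7578 was lower. Mir8100 was listed at 0 in both unstimulated libraries and passed the filter only through stimulated cells, so the filter favoured its direction. The median difference of the small RNA rows was 0.06 and that of all rows -0.00. With a library left out the median ran from -0.01 to 0.12 in small RNA rows and from -0.02 to 0.02 over all rows. With p unadjusted, 29 small RNA rows (13.9%) were under 0.05, against 10.8% of all rows. Since p-values of small RNA rows may be too small, as said above, these shares are only a description.

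**Figure D3:**
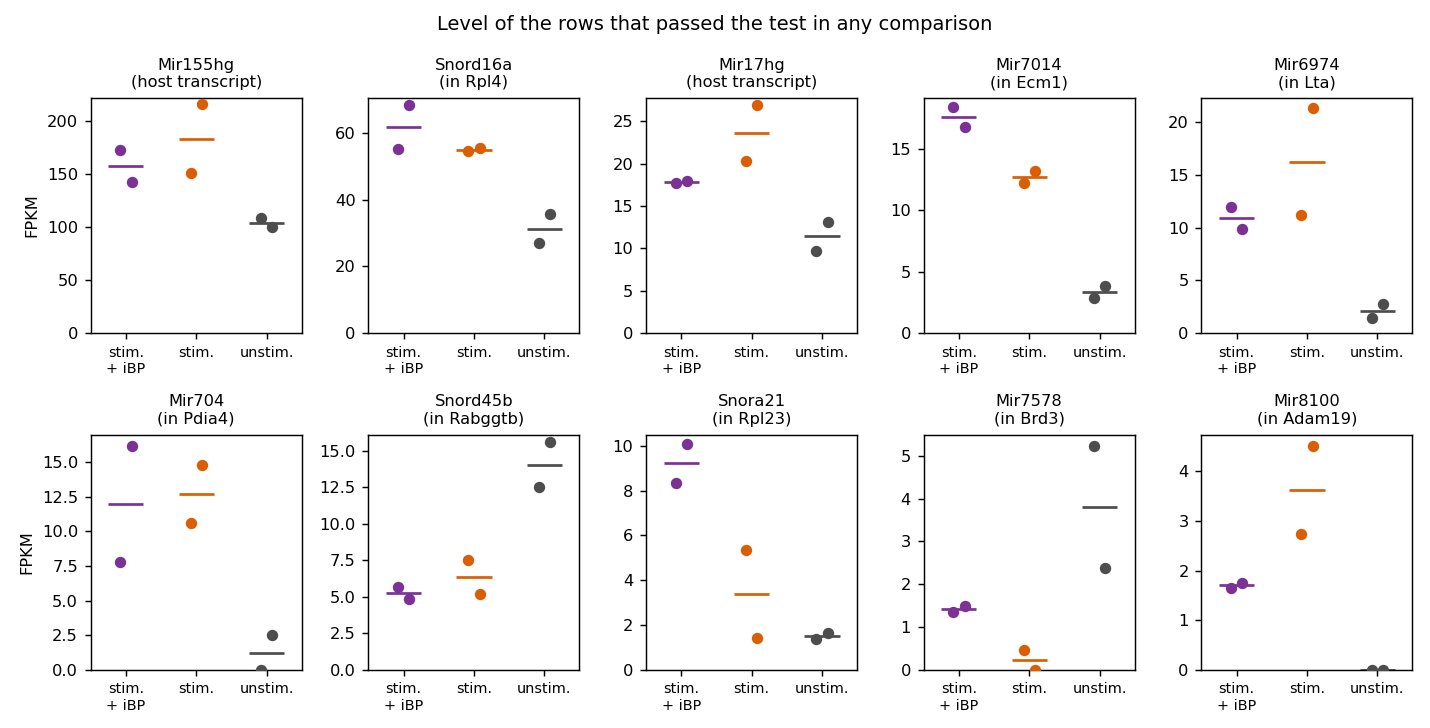
FPKM of the 10 rows that passed the test in any comparison, by group, with a point for each library and a line at the mean of the 2. The 7 rows that were higher with stimulation have both stimulated libraries above both unstimulated libraries, and Mir7578 and Snord45b have both below.

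Mir6974 spans an intron of Lta, the gene of the cytokine lymphotoxin alpha, on chromosome 17. It had 12 and 9.86 FPKM in libraries stimulated with iBP, 11.2 and 21.3 in stimulated and 1.38 and 2.71 in unstimulated libraries. All 4 stimulated libraries stood above both unstimulated ones. The difference for stimulated against unstimulated was 2.47 ± 0.33 (SE) on the log2(FPKM + 1) scale (limma, adjusted p 0.0025). With a library left out the difference was 2.04 to 2.91. Mir6974 did not pass without a filter on low values or without the variance trend. Lta had 69.4 and 62.3 FPKM with iBP, 72.9 and 83.9 in stimulated and 22.0 and 24.2 in unstimulated libraries, a difference of 1.72 (limma, adjusted p 0.000125).

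Mir7014 lies in Ecm1, which encodes a secreted matrix protein, on chromosome 3 at 95734911 to 95734973 on the minus strand, beside a splice site and in an exon outside the basic set. It had 18.4 and 16.7 FPKM with iBP, 12.2 and 13.2 in stimulated and 2.86 and 3.86 in unstimulated libraries. The groups did not overlap, and the libraries with iBP were the highest. The difference for stimulated against unstimulated was 1.66 ± 0.23 (limma, adjusted p 0.0033), and it missed the threshold without stimulated replicate 2 (adjusted p 0.0522, difference 1.61). Ecm1 itself had 506 and 486 FPKM with iBP, 457 and 555 in stimulated and 156 and 161 in unstimulated libraries, and its difference was also 1.66.

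Mir704 lies at an intron boundary of Pdia4, an enzyme of disulfide formation in the endoplasmic reticulum, on chromosome 6 at 47803576 to 47803652 on the minus strand, with 18.2% of its bases in an exon. It had 7.75 and 16.2 FPKM with iBP, 10.6 and 14.8 in stimulated and 7.9e-05 and 2.49 in unstimulated libraries. Unstimulated replicate 1 was near 0, and without it the difference was 1.96, against 2.86 ± 0.50 with it (limma, adjusted p 0.0512 and 0.0166). Without stimulated replicate 1 or 2 the adjusted p was 0.0687 and 0.188. Pdia4 had 97.7 and 110 FPKM with iBP, 109 and 101 in stimulated and 47.4 and 43.5 in unstimulated libraries, a difference of 1.19 (limma, adjusted p 0.000923).

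Mir8100 lies inside a long intron of Adam19, a membrane metalloprotease, on chromosome 11 at 46102270 to 46102390 on the plus strand. It had 1.65 and 1.74 FPKM with iBP and 2.73 and 4.51 in stimulated libraries, and was listed at 0 in both unstimulated libraries. It thus passed the filter only through libraries of stimulated cells. Its difference of 2.18 ± 0.36 (limma, adjusted p 0.0108) rests on the pseudocount and is not a fold, and it missed the threshold without stimulated replicate 2 (adjusted p 0.166). Adam19 had 16.9 and 15.7 FPKM with iBP, 10.9 and 14.9 in stimulated and 2.87 and 6.55 in unstimulated libraries, a difference of 1.35 (limma, adjusted p 0.057). In these 4 microRNA rows the host was thus also higher in every stimulated library than in every unstimulated one.

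In Snord16a and Mir7578 the difference of the host was close to 0. Snord16a lies in Rpl4, a protein of the large ribosomal subunit, on chromosome 9 at 64175423 to 64175521 on the plus strand, in an exon outside the basic set, and had 55.4 and 68.5 FPKM with iBP, 54.7 and 55.4 in stimulated and 27 and 35.6 in unstimulated libraries. It differed by 0.81 ± 0.17 (limma, adjusted p 0.0427), while Rpl4 had 3194 and 3301 FPKM with iBP, 3235 and 3141 in stimulated and 2942 and 3001 in unstimulated libraries and differed by 0.10 (limma, adjusted p 0.784). Snord16a missed the threshold when either stimulated library, either library with iBP or unstimulated replicate 1 was left out (adjusted p 0.0607 to 0.25). Whether its difference from that of its host exceeds the error was not tested.

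Mir7578 lies in Brd3, a reader of acetylated histones, on chromosome 2 at 27450549 to 27450630 on the minus strand. It had 1.34 and 1.49 FPKM with iBP, 0.462 and 0 in stimulated and 5.23 and 2.39 in unstimulated libraries. It was lower by 1.93 ± 0.40 with stimulation (difference -1.93, limma, adjusted p 0.0401), while Brd3 had 10.6 to 16.0 FPKM in all 6 libraries. The adjusted p was 0.0302 without unstimulated replicate 2 and 0.0607 to 0.287 without each of the other 5 libraries, so the call was lost without any of those 5.

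The 2 host transcripts that passed are long non-coding RNAs that carry microRNAs of T cell activation. Mir155hg, on chromosome 16 at 84703167 to 84715245 on the plus strand, had 173 and 142 FPKM with iBP, 150 and 216 in stimulated and 108 and 99.5 in unstimulated libraries, a difference of 0.79 ± 0.17 (limma, adjusted p 0.0449). Mir17hg, on chromosome 14 at 115042879 to 115046727 on the plus strand, had 17.7 and 18 FPKM with iBP, 20.4 and 26.9 in stimulated and 9.74 and 13.1 in unstimulated libraries, a difference of 0.99 ± 0.21 (limma, adjusted p 0.0458). In both, all 4 stimulated libraries were above both unstimulated ones. Each was close to the threshold and passed with 1 of the 6 libraries left out but not the others, Mir155hg only without stimulated replicate 1 (adjusted p 0.0132 to 0.307) and Mir17hg only without unstimulated replicate 2 (adjusted p 0.0372 to 0.372). Mir22hg, the host of miR-22, had 8.66 and 9.42 FPKM with iBP, 8.92 and 10.6 in stimulated and 2.86 and 7.21 in unstimulated libraries and did not pass (difference 0.93 ± 0.33, limma, adjusted p 0.288).

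The 5 microRNA rows of the Mir17hg cluster did not pass the test. Mir17 had 3.46 and 13.1 FPKM with iBP, 6.82 and 21.2 in stimulated and 3.82 and 7.43 in unstimulated libraries. Mir18 had 4.72 and 13.6 FPKM with iBP, 6.29 and 20.6 in stimulated and 3.72 and 10.3 in unstimulated libraries. Mir19a had 3.06 and 12 FPKM with iBP, 6.86 and 10.2 in stimulated and 2.5 and 9.43 in unstimulated libraries. In these 3 rows the groups overlapped. In all 5 rows of the cluster replicate 2 of every group was higher than replicate 1.

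Mir19b-1 had 2.04 and 3.14 FPKM with iBP, 4.90 and 7.21 in stimulated and 1.83 and 4.88 in unstimulated libraries. Mir20a was lowest, with 0.365 and 2.09 FPKM with iBP, 0.392 and 1.76 in stimulated and 0.987 and 2.0 in unstimulated libraries. Differences for stimulated against unstimulated were 1.05, 0.78, 0.63 and 0.77 for Mir17, Mir18, Mir19a and Mir19b-1 and -0.32 for Mir20a, with adjusted p of 0.507 to 0.896 (limma). Mir17 and Mir20a, which share a seed and a host transcript, averaged 9.31 and 1.26 FPKM. Levels did not fall steadily along the transcript, since Mir19b-1, beyond Mir20a, averaged 4.0 FPKM.

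**Figure D4:**
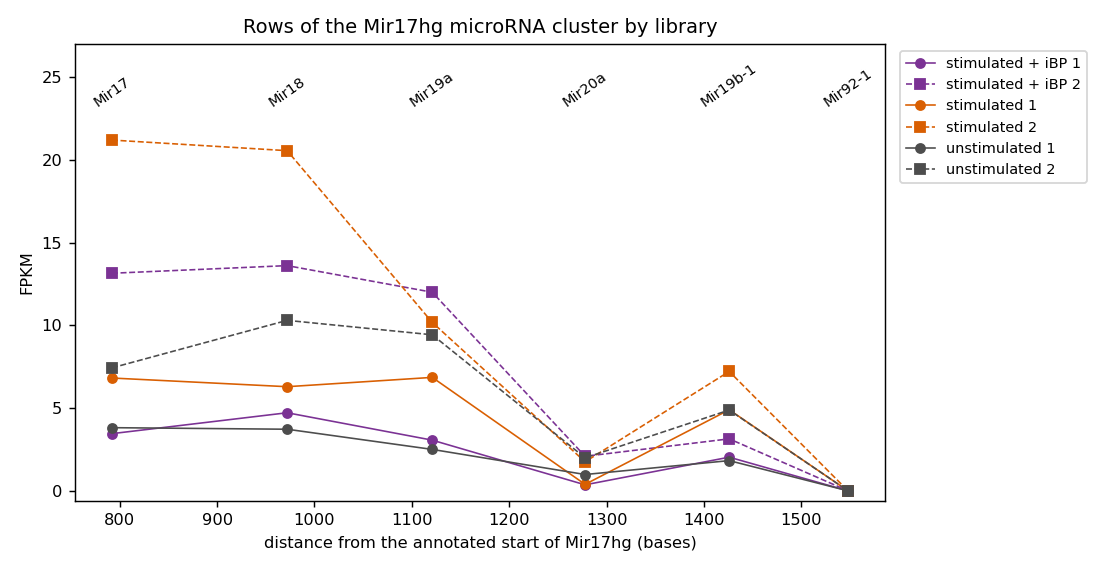
FPKM of the 6 microRNA rows of the Mir17hg cluster in each library, against the distance of each row from the annotated start of Mir17hg in bases. Lines join the rows of a library. Mir17, Mir18 and Mir19a are highest in stimulated replicate 2 or in iBP replicate 2, Mir20a dips in every library, and Mir92-1, at 1548 bases, is close to 0 in all of them.

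Other rows had large differences that did not pass. Snord15a in Rps3 had 1.62 and 2.04 FPKM with iBP, 4.64 and 4.58 in stimulated and 1.07 and 1.35 in unstimulated libraries, a difference of 1.34 (limma, adjusted p 0.0687). The groups did not overlap in that row, while Rps3 itself had 872 to 996 FPKM. Mir7048 in Dedd2 had 2.17 and 0.121 FPKM with iBP, 2.07 and 3.87 in stimulated and 0 and 2.07 in unstimulated libraries, and its difference of 1.14 was 0.33 without unstimulated replicate 1 and 1.95 without unstimulated replicate 2. Mir6921 in Srebf1 differed by -1.23 (-0.63 without unstimulated replicate 1), Mir1904 in Pde4d by -1.19, Snord88c in 2410002F23Rik by -1.07 (0.19 without stimulated replicate 2 and -2.33 without stimulated replicate 1, the second with adjusted p 0.0339) and Snord45b in Rabggtb by -1.04, and with all libraries these 5 rows had adjusted p of 0.0828 to 0.586 (limma).

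Differences of small RNA rows were set beside those of their hosts. Over the 178 rows with a host, Pearson's r between the 2 differences for stimulated against unstimulated was 0.478, and over the 60 of these with a mean FPKM of 5 or more it was 0.704. This is a correlation across rows of the same 6 libraries, rows in a shared host are not independent, and the rows may hold host reads, so no p is given. The sign was the same in 101 of 178. Differences spread more widely in the rows (SD 0.647) than in their hosts (SD 0.353). Of the 144 hosts tested, 4 passed the test themselves, Ecm1, Lta, Pdia4 and Mir17hg, where 135 of all 10436 rows (1.29%) passed. Of the 8 rows inside these hosts, 3 passed.

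The rows farthest from their host were Mir7578, with a row difference lower than its host's by 1.84 (value -1.84), and Mir704, higher by 1.67. Mir7048 and Mir6922 were higher than their hosts by 1.33 and 1.32, and Snord15a by 1.25. Snord88c, Mir20a and Mir6975 in the helicase gene Ddx39b were lower, at -1.32, -1.31 and -1.17. Mir6922 and Mir6921 both lie in Srebf1, the regulator of lipid synthesis, and went opposite ways. Mir6922 had 2.47 and 2.40 FPKM with iBP, 1.73 and 1.30 in stimulated and 0.441 and 0.0128 in unstimulated libraries, whereas Mir6921 had 1.44 and 0.360 FPKM with iBP, 0.574 and 1.08 in stimulated and 5.45 and 1.80 in unstimulated libraries. Neither passed (limma, adjusted p 0.269 and 0.33).

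Closest to their host were Mir7014 and, with differences near 0 or like the host's, Mir1898 in Zfr, Mir6966 in Narfl and Mir7227 in Arid1a. Mir1898 had 8.64 and 23 FPKM with iBP, 7.84 and 17.7 in stimulated and 13.7 and 11 in unstimulated libraries, a difference of -0.04 beside -0.02 in Zfr. Its replicates differed by far more than its groups.

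**Figure D5:**
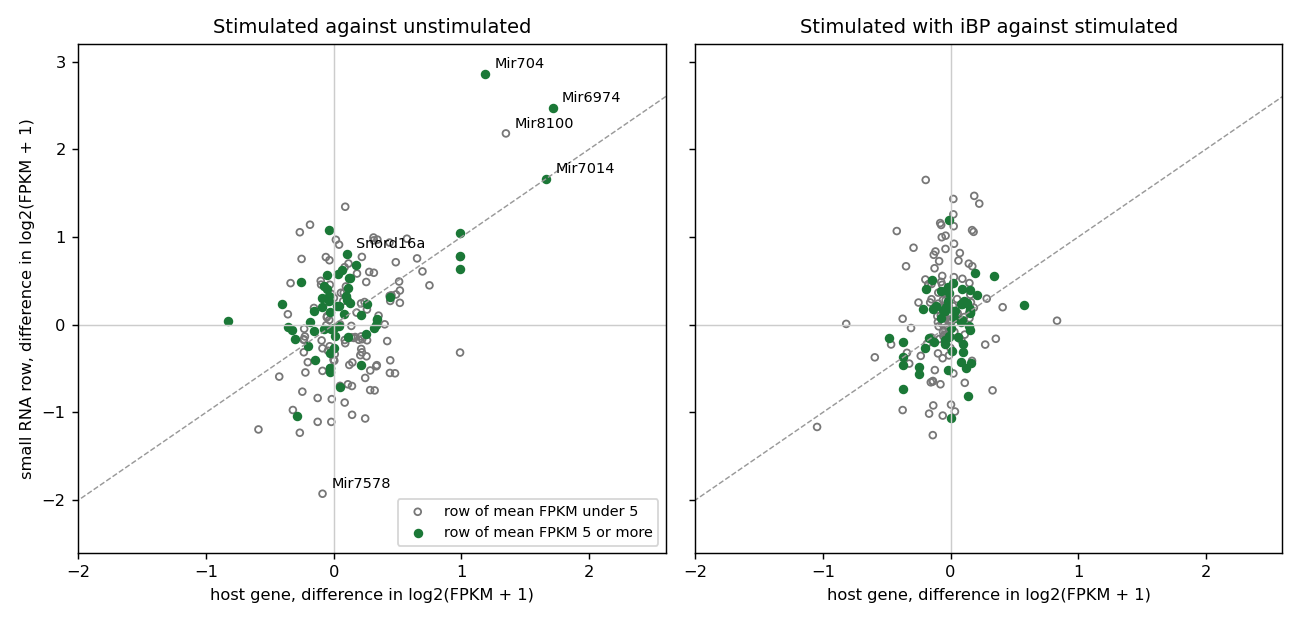
Difference of each small RNA row against the difference of its host on the log2(FPKM + 1) scale, for stimulated against unstimulated (left) and stimulated with iBP against stimulated (right), for the 178 rows with a host. The dashed line marks equal differences. With stimulation Mir704, Mir6974, Mir8100 and Mir7014 stand at the upper right with hosts that are also higher, and with iBP the points spread upward and downward over hosts that differ little.

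Addition of iBP to stimulated cells, which asks whether the inhibitor changed activated Treg, gave no small RNA row that passed the test (limma, 0 of 209), where 0.00958% of all rows passed, 1 row of 10436. With p unadjusted, 26 rows (12.4%) were under 0.05, against 4.77% of all rows, with the same limit on the p-values of small RNA rows. The smallest adjusted p was 0.6, in Snord42a in Rpl23a, which had 14.5 and 13.3 FPKM with iBP, 5.48 and 5.46 in stimulated and 7.01 and 8.88 in unstimulated libraries, a difference of 1.2 (95% interval 0.69 to 1.70). Rpl23a had 475 and 481 FPKM with iBP and 537 and 430 in stimulated libraries, and 2 other C/D rows of the same gene, Snord42b and Snord4a, differed by 0.03 and -0.13.

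More small RNA rows were above 0 than below it with iBP, although single rows did not pass. The difference was positive in 127 of 209 rows (60.8%), against 44.2% of all rows, with a median of 0.10 beside -0.03. Stimulated replicate 1 had a lower share of summed FPKM in these rows, 0.429%, than its partner, 0.520%. Without that library the count was 106 of 204 (52.0%), with a median of 0.03 beside -0.06 over all rows. Of the 78 snoRNA rows 53 were positive, with a median of 0.17, and of the 126 microRNA rows 73, with a median of 0.05. The hosts of these rows differed little, with an SD of 0.206 against 0.540 in the rows, and r between the 2 was 0.194 over 178 rows.

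Among rows averaging 2 FPKM or more in whichever group was higher, the largest positive differences with iBP were in Snord82, Snord88a, Snora21, Snord88c, Snord42a and Mir3094. Snord82, in the nucleolin gene Ncl, had 4.76 and 3.66 FPKM with iBP, 0 and 1.72 in stimulated and 0 and 4.25 in unstimulated libraries, a difference of 1.65 that was 0.93 without stimulated replicate 1. Snord88a had 5.73 and 3.47 FPKM with iBP, 1.40 and 0.715 in stimulated and 1.73 and 2.5 in unstimulated libraries, a difference of 1.43, and Snord88c, a similar snoRNA in the same host, had 6.01 and 3.69 FPKM with iBP, 4.75 and 0 in stimulated and 4.23 and 3.84 in unstimulated libraries. Its difference was 1.26, and -0.00353 without stimulated replicate 2. Reads of such copies may be split between them. Snora21 and Mir3094, in the gene of the transcriptional repressor Nfx1, differed by 1.38 and 1.16, and Snora21 by 0.68 without stimulated replicate 2 and 2.08 without stimulated replicate 1. With all libraries these 5 rows missed the threshold (limma, adjusted p 0.852 to 0.998).

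The largest negative differences among such rows were Mir7052 in Josd2 at -1.26, Mir6924 in Acap1 at -1.06, Mir7048 at -1.04, Snord15a at -0.99, Mir19b-1 at -0.97 and Snord92 in Wdr43 at -0.92, each with an adjusted p of 0.998 (limma). Without iBP replicate 2 the differences were -0.75 in Mir7052, -0.62 in Mir6924, -0.29 in Mir7048 and -0.53 in Snord92, and without iBP replicate 1 that of Mir7048 was -1.78. Mir6924 had 4.36 and 1.90 FPKM with iBP, 8.30 and 6.30 in stimulated and 7.65 and 2.76 in unstimulated libraries. Mir7014 differed by 0.43 (95% interval -0.06 to 0.93), Mir6974 by -0.48 (-1.19 to 0.24), Mir704 by -0.14 (-1.24 to 0.95) and Mir8100 by -0.75 (-1.53 to 0.03). These intervals leave room for changes in either direction in the microRNA rows that were higher with stimulation.

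For cells stimulated with iBP against unstimulated cells, 6 small RNA rows passed, 5 higher and 1 lower. This was 2.87% of the 209, where 1.75% of all rows passed, 1.03% higher and 0.728% lower, with the same limit on the p-values of small RNA rows. This comparison shares its unstimulated libraries with the first and its iBP libraries with the second, so its calls are not independent of theirs. The higher rows were Mir7014 (difference 2.1, limma, adjusted p 0.000821), Mir6974 (2.0, adjusted p 0.00901), Snord16a (0.97, adjusted p 0.0133), Mir704 (2.72, adjusted p 0.0187) and Snora21, and the lower row was Snord45b. Mir7014 passed with each library left out. Mir6974 did not pass without unstimulated replicate 1 or either iBP library (adjusted p 0.052 to 0.0896), and Mir704 and Snord16a did not without unstimulated replicate 1 or iBP replicate 2 (adjusted p 0.0665 and 0.17 for Mir704, 0.0835 and 0.179 for Snord16a). Mir8100 had a difference of 1.43 (adjusted p 0.077) while its host Adam19 passed (1.68, adjusted p 0.0164).

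Snora21 lies in an intron of the ribosomal protein gene Rpl23 on chromosome 11 at 97781639 to 97781775 on the minus strand. It had 8.36 and 10.1 FPKM with iBP, 5.37 and 1.40 in stimulated and 1.35 and 1.62 in unstimulated libraries. Both libraries with iBP stood above the other 4, and the stimulated libraries lay far apart. It was higher with iBP than in unstimulated cells by 2.04 ± 0.41 (limma, adjusted p 0.0296). Rpl23 had 38.4 and 45.7 FPKM with iBP, 41.4 and 30.8 in stimulated and 32.8 and 34.4 in unstimulated libraries, a difference of 0.31 (limma, adjusted p 0.522).

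Snord45b lies in Rabggtb, a subunit of the enzyme that attaches lipid to Rab proteins, on chromosome 3 at 153910563 to 153910633 on the minus strand. It had 5.67 and 4.84 FPKM with iBP, 7.54 and 5.22 in stimulated and 12.5 and 15.6 in unstimulated libraries. Both unstimulated libraries stood above the other 4. It was lower with iBP than in unstimulated cells, with a difference of -1.26 ± 0.26 (limma, adjusted p 0.0305), and Rabggtb had 64.8 to 88.3 FPKM with a difference of -0.19. Snora21 and Snord45b both missed the threshold when any library with iBP or any unstimulated library was left out (adjusted p 0.0691 to 0.201 and 0.0752 to 0.217).

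Among rows that did not pass here, Mir6922 differed by 1.51 (limma, adjusted p 0.0644). Mir3094 had 4.08 and 5.93 FPKM with iBP, 2.15 and 1.24 in stimulated and 0 and 3.44 in unstimulated libraries, and its difference of 1.49 (limma, adjusted p 0.284) was 0.42 without unstimulated replicate 1 and 2.57 without unstimulated replicate 2 (adjusted p 0.834 and 0.0147). Mir132, a microRNA whose row starts 294 bases from that of Mir212, had 0.457 and 0 FPKM with iBP, 1.32 and 0.243 in stimulated and 3.26 and 1.42 in unstimulated libraries, a difference of -1.41 (limma, adjusted p 0.184). Mir212 had 0.973 and 0.491 FPKM with iBP, 1.73 and 0.0774 in stimulated and 2.53 and 2.1 in unstimulated libraries. Snora52 in Rplp2 had 0.168 and 6.47 FPKM with iBP, 3.29 and 2.6 in stimulated and 6.20 and 6.34 in unstimulated libraries, a difference of -1.30 (limma, adjusted p 0.442) that was 0.039 without iBP replicate 1. Mir1904 had 6.59 and 0.644 FPKM with iBP, 2.33 and 3.38 in stimulated and 8.41 and 7.12 in unstimulated libraries, and its difference of -1.31 was -0.20 without iBP replicate 2 and -2.41 without iBP replicate 1 (limma, adjusted p 0.961 and 0.018). Mir6921 differed by -1.22, by -0.62 without unstimulated replicate 1 and by -0.80 without iBP replicate 2.

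The difference was positive in 142 of 209 small RNA rows (67.9%), against 45.6% of all rows, with a median of 0.18 beside -0.03. In unstimulated replicate 1, 25 of these rows were listed at 0. Without that library the count was 117 of 206 (56.8%), with a median of 0.11 beside -0.06 over all rows. Row and host differences had an r of 0.444 over 178 rows, and the sign was the same in 111.

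Among the immune microRNA rows, none of the 10 tested passed in any comparison (limma). With p unadjusted, Mir24-2 and Mir27a, whose rows start 143 bases apart with no containing gene, were under 0.05 in 2 comparisons, Mir19b-1 was for iBP against stimulated and Mir132 was for iBP against unstimulated. Mir27a had 1.81 and 1.69 FPKM with iBP, 0.0759 and 0.0391 in stimulated and 0.935 and 1.52 in unstimulated libraries, and Mir24-2 had 3.77 and 2.25 FPKM with iBP, 0.680 and 1.13 in stimulated and 2.66 and 2.74 in unstimulated libraries. In both rows the stimulated libraries were the lowest, with differences for iBP against stimulated of 1.38 and 1.06 (limma, p 0.00275 and 0.00993 unadjusted, adjusted p 0.962 and 0.998). Mir23a of the same cluster did not pass the filter and was listed at 0 in both stimulated libraries, with 1.31 and 0.764 with iBP and 0.935 and 0.590 in unstimulated libraries.

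A list of 30 symbols of microRNA biogenesis included older and newer names of the same gene. Of these symbols 28 were in the table, 25 were tested and 0 passed in each of the 3 comparisons (limma). The median for stimulated against unstimulated was 0.05 beside -0.00 over all rows. With p unadjusted, 2, 1 and 2 of the 25 were under 0.05 for stimulated against unstimulated, iBP against stimulated and iBP against unstimulated. Over all rows the shares were 10.8%, 4.77% and 12.2%. Prkra, a partner of Dicer, had 0.816 and 0.436 FPKM with iBP, 0.669 and 0.814 in stimulated and 5.89 and 1.38 in unstimulated libraries. Its difference for stimulated against unstimulated was -1.22 (limma, adjusted p 0.351). Dgcr8, the partner of Drosha, had 4.36 and 3.10 FPKM with iBP, 2.39 and 7.01 in stimulated and 2.22 and 2.78 in unstimulated libraries. Its difference was 0.58 (limma, adjusted p 0.673), and its stimulated and unstimulated libraries overlapped.

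A list of 31 symbols of snoRNA-protein complexes and snoRNA processing also included such paired names. Of these symbols 28 were in the table, 27 were tested and 0 passed (limma). At an unadjusted p under 0.05 there were 5, 3 and 6 of the 27 in the 3 comparisons, beside 10.8%, 4.77% and 12.2% of all rows. Nolc1, a nucleolar chaperone of snoRNA complexes, averaged 76.5 FPKM with iBP, 81.3 in stimulated and 59.0 in unstimulated libraries (difference 0.45 for stimulated against unstimulated, adjusted p 0.148). Fbl, the methyltransferase of C/D complexes, averaged 26.4 FPKM with iBP, 39.0 in stimulated and 38.1 in unstimulated libraries (difference -0.55 for iBP against stimulated, adjusted p 0.998), and Exosc10, an exosome nuclease that trims snoRNA ends, averaged 19.2 FPKM with iBP, 36.4 in stimulated and 29.5 in unstimulated libraries (difference -0.92, adjusted p 0.774). Of 15 tested non-coding host genes, Mir17hg and Mir155hg passed for stimulated against unstimulated and none passed in the other comparisons (limma, smallest adjusted p 0.998 and 0.129). Gas5, a non-coding host of several snoRNAs, had 101 and 88.3 FPKM with iBP, 79.4 and 91.3 in stimulated and 84.1 and 84.9 in unstimulated libraries.

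Neighbouring rows could also share bases. Mir5121 and Snord33, both in Rpl13a on the same strand, overlap by 30 bases. Mir5121 had 14 and 12 FPKM with iBP, 11.1 and 12.2 in stimulated and 16.8 and 17.8 in unstimulated libraries, and Snord33 had 19.4 and 11.8 FPKM with iBP, 11.3 and 16.6 in stimulated and 17.6 and 22.1 in unstimulated libraries. Mir1291 and Snora34 in Kansl2 overlap by 92 bases, and the first had the lower value in every library. Such pairs can share reads. The 5 rows of Rpl13a differed for stimulated against unstimulated by -0.54 to -0.25, and none passed, while Rpl13a differed by -0.03.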

How the data were processed

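RNA of wild-type Treg was measured in 6 libraries, 2 in each of 3 groups. The authors deposited FPKM values per gene, made with HISAT2 2.2.1 and StringTie 2.1.1 on mm10 per the submitters' processing notes; no source used here gives the annotation or the strand setting. Rows that reached an FPKM of 1 in 2 or more libraries, 10436 of 24421, were tested with limma 3.58.1 (R 4.3.3) on log2(FPKM + 1), with a variance trend, all 3 groups in 1 fit and Benjamini-Hochberg adjustment over all tested rows (threshold 0.05). A difference on this scale understates the change of low rows. Because FPKM gives no counts, the depth is unknown, and no counting interval is given.

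Rows were placed by symbol in GENCODE M21 (GRCm38, which is mm10). A host is a longer annotated gene that holds the whole row on the same strand, the one with the highest mean FPKM where several do. A row is exonic where at least 50% of its bases lie in host exons, and a splice site counts as met within 3 bases. Sequences come from RefSeq GRCm38.p6 and GENCODE.

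The rows and gene lists were chosen with earlier results of these data known. Named rows are those past the test, the 6 largest differences each way per comparison among rows averaging 2 FPKM or more in whichever group was higher, the 15 highest, tested immune microRNAs, up to 8 rows farthest from and 4 closest to their host, and 3 on either side of the filter, except a few that are not reported here. Alternatives changed the pseudocount, filter, scaling, variance model, libraries in the fit, replicate block and host choice. Figures were drawn with matplotlib 3.10.9.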

Additional observations from a re-analysis of the deposited data

How the results depend on the processing

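The count of small RNA rows past the test for stimulated against unstimulated, 8, was 3 with a pseudocount of 0.1, 0 without a filter on low values, 4 after rescaling to TPM, 1 without the variance trend and 4 with only the 2 groups compared, and 1 to 9 with a library left out (1 without stimulated replicate 2, 9 without unstimulated replicate 2). For iBP against unstimulated, 6 became 0 without a filter and 1 without the trend, and 1 to 8 with a library left out (1 without unstimulated replicate 1, 8 without unstimulated replicate 2). For iBP against stimulated the count was 0 in each setting run. Across tested rows, deviations of replicate 1 from its group mean were nearly uncorrelated between groups (-0.0118, -0.0185 and -0.0462). The labels do not say whether replicate numbers pair the libraries, and these correlations cannot settle it. With the replicate block the counts were 4, 0 and 4. Without the variance trend the 1 row left for stimulated against unstimulated was Mir8100, and the 1 left for iBP against unstimulated was Mir7014. The correlation of row and host differences, 0.478, was 0.424 with a pseudocount of 0.1, 0.572 over rows at 1 or more in all 6 libraries, and 0.304 to 0.465 with a library left out. Of the named differences, 6 changed sign with a library left out. For stimulated against unstimulated these were Mir18 (-0.0026 to 1.56), Mir19a (-0.15 to 1.42), Mir20a (-0.81 to 0.18) and Snord88c (-2.33 to 0.19). The others were Snord88c for iBP against stimulated (-0.00353 to 2.52) and Snora52 for iBP against unstimulated (-2.64 to 0.039). The causes were not tested. With 2 libraries a group and no counts, changes smaller than the intervals given could not be seen.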
